A study of Mus musculus with 4 samples.

Results

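Imprinted genes are transcribed mainly from the copy inherited from 1 parent. A list of 38 such genes, drawn up for the hypothalamus and its surroundings, was taken by name and not by a threshold on signal. It includes genes known from the placenta, such as Ascl2 and Phlda2. The list was followed in tissue holding thalamus and hypothalamus of mouse pups. Of these 38 genes, 36 had a named probe on the array and 34 gave a signal that could be tested, among 21426 genes tested in all. Rtl1 and H19 were not analysed here, since no probe carried their names, and Zim1 and Phlda2 were too dim to test. By the copy commonly named as expressed, the 34 genes were classed as 19 paternal, 10 maternal and 5 varying. In those 5 (Gnas, Blcap, Grb10, Igf2r and Inpp5f) the expressed copy depends on the transcript or the cell type. A class need not hold in every cell of this tissue, as told below for Igf2 and Ube3a.

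The series asked whether the loss of visual input changes expression in this tissue at postnatal day 14. Dark-reared pups came from dams moved into a light-proof cage 1 to 4 days before delivery, were tended by dim red light and remained in darkness up to the day of sampling. Control pups lived with 12 h of light a day in ordinary cages. Each group had 2 samples of total RNA that the labels call biological replicates; strain, sex and the number of pups behind a sample are not given in the sources used here, so p-values may measure a spread between samples that is in part technical.

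Imprinting is set in the germ line by DNA methylation of control regions rich in CpG, and these marks are kept after fertilisation by proteins such as ZFP57 and TRIM28. Imprinted genes lie in clusters, and 1 control region can set the expressed copy of several neighbours, some maternal and some paternal. Many are abundant in the hypothalamus, and loss of the paternal genes of the Prader-Willi region disturbs feeding, growth and puberty. The arrays read the summed RNA of both copies, so the parental origin named for each gene is background and was not measured.

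The promoters below are shown because they are known to carry the methylation mark in 4 paternally expressed genes or gene pairs. They were also chosen for their signals, since Mest varied less across the arrays than the others. Each stretch ends at the base before an annotated start of transcription and is written 5′ to 3′ on the strand of the gene, from RefSeq, build GRCm38.p6, with each CpG in capitals. The first is the 163 bases between the starts of Peg3 and Usp29, which are transcribed away from each other, at chr7:6730420-6730582 on the plus strand, the strand of Usp29. The next 3 are the 250 bases before Nnat at chr2:157559828-157560077 on the plus strand, before Nap1l5 at chr6:58907127-58907376 on the minus strand, and before 1 of the 3 listed starts of Mest at chr6:30737800-30738049 on the plus strand.
Usp29: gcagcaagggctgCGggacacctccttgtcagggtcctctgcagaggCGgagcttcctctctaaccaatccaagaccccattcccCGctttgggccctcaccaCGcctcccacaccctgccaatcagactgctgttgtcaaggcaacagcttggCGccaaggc
Nnat: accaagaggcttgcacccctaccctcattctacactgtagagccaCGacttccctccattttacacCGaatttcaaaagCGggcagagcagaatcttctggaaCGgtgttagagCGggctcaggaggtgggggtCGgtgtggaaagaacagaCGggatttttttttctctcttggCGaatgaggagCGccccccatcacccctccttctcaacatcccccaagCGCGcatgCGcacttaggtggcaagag
Nap1l5: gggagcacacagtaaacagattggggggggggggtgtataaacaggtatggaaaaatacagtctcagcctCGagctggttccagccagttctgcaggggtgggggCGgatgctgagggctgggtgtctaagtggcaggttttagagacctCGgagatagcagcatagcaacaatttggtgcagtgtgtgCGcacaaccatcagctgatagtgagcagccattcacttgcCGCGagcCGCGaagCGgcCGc
Mest: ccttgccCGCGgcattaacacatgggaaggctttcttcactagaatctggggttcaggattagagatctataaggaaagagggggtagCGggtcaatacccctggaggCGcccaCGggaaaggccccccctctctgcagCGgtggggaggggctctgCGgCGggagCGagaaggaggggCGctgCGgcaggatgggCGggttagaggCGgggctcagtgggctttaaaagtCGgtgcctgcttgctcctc
These stretches hold 5, 12, 10 and 14 CpG in the order shown. Over windows of 300 bases (250 before a start and 50 after it), RefSeq gave 47 windows for 31 of the 38 genes; Impact, Peg10, Sgce, Rtl1, H19, Cdkn1c and Trappc9 had none. The median window of these genes held 15 CpG, against 7 over all 32851 windows, of which 34.6% held at least 15. The hexamer TGCCGC, the core of the ZFP57 site, was searched on both strands; no other motif was searched. It lay in 12 of the 47 windows (25.5%), belonging to 11 genes, and in 11.6% of all windows; the letters include a CpG, which these windows hold more often. The 11 genes were Nnat, Calcr, Mest, Copg2, Nap1l5, Zim1, Snrpn, Igf2, Plagl1, Grb10 and Meg3, and among the stretches printed Nap1l5 has 1 match and Mest has 2.

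Each sample was read on its own one-colour Agilent array, and 65.9% to 73.3% of 41174 probes were well above background, the lowest share being that of control 2. Values are log2 signals after subtraction of each array's own 75th percentile, given in the order dark-reared 1, dark-reared 2, control 1, control 2. A level is compared across arrays for 1 probe, never between genes, because probes differ in brightness. Of 23 listed hypothalamus markers 14 could be tested, and these were well above background on every array. Of 22 listed thalamus markers 20 could be tested, and 19 of these were, the exception being dim in control 2. Testing itself required such a signal on both arrays of a group, so these counts were in part fixed by the filter. The arrays differed in marker levels. The summed linear signal of the hypothalamus markers, in multiples of the 75th percentile, was 35.9, 60.3, 85.3 and 56.5, lowest in dark-reared 1. That of the thalamus markers was 30.1, 83.3, 108 and 38.7, low in both dark-reared 1 and control 2. Not every marker followed its sum: dark-reared 1 was lowest in 9 of 14 hypothalamus and 11 of 20 thalamus markers, dark-reared 2 in 4 and 3, and control 2 in 1 and 6. The thalamic and hypothalamic glutamate transporter gene Slc17a6 read -1.0, 3.43, 3.89 and 1.64, and Resp18, a neuroendocrine secretory protein, read 0.47, 2.82, 3.15 and 2.12. Striatum markers, with sums of 360, 117, 137 and 326, were high in dark-reared 1 and control 2. Cortex and hippocampus markers had sums of 281, 112, 128 and 221, which single markers did not always follow. Of these 17 markers 5 were lowest in control 2, 8 in control 1 and 2 in each dark-reared array. Their median deviations from each gene's mean over the arrays were 0.40, 0.13, -0.29 and -0.15. Xist, the RNA of the inactive X, was bright in dark-reared 1 and control 1 (3.42 and 3.79). It was not well above background in the others. Y-linked Ddx3y read -0.32, 1.07, -6.54 and 1.18 and was not well above background in control 1 only. The samples thus also differed in X- and Y-linked signals: dark-reared 1 held both, control 1 only Xist, and dark-reared 2 and control 2 only Ddx3y. In tissue pieces of this kind, fewer cells of a type and less RNA per cell cannot be told apart.

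No imprinted gene changed between dark-reared and control samples by the test. None of 34 passed limma at a Benjamini-Hochberg adjusted p of 0.05, as 0% of all genes tested did (lowest adjusted p 0.303), and none had an unadjusted p under 0.05, against 1.25% of all genes. The lowest unadjusted p among them was 0.184 by limma, for Peg10, and every adjusted p was 1. Of the 34, 12 had a higher and 22 a lower mean in the dark-reared samples, with a median log2 difference of -0.10, where all genes had 10297 higher, 11129 lower and a median of -0.01. The extremes were Calcr at -1.77 and Slc22a18 at 0.33.

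The paternally and maternally expressed genes gave similar, small median differences. Among paternal genes 7 of 19 were higher and 12 lower, with a median difference of -0.11; among maternal genes 4 of 10 were higher and 6 lower, with a median of -0.06. Of the 5 genes with a varying expressed copy, 1 was higher and 4 lower, with a median of -0.11. Both classes held genes with large and small differences: Dlk1 at -1.09 and Igf2 at 0.29 are paternal, Calcr at -1.77 and Slc22a18 at 0.33 maternal. The difference between the classes was not tested. Dark-reared 2 and control 2 shared a slide, and between these arrays the paternal median was 0.46, with 17 of 19 genes higher in dark-reared 2, and the maternal median 0.02, with 5 of 10 higher. Without dark-reared 1 the paternal median was 0.20 and the maternal median 0.06.

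**Figure D1:**
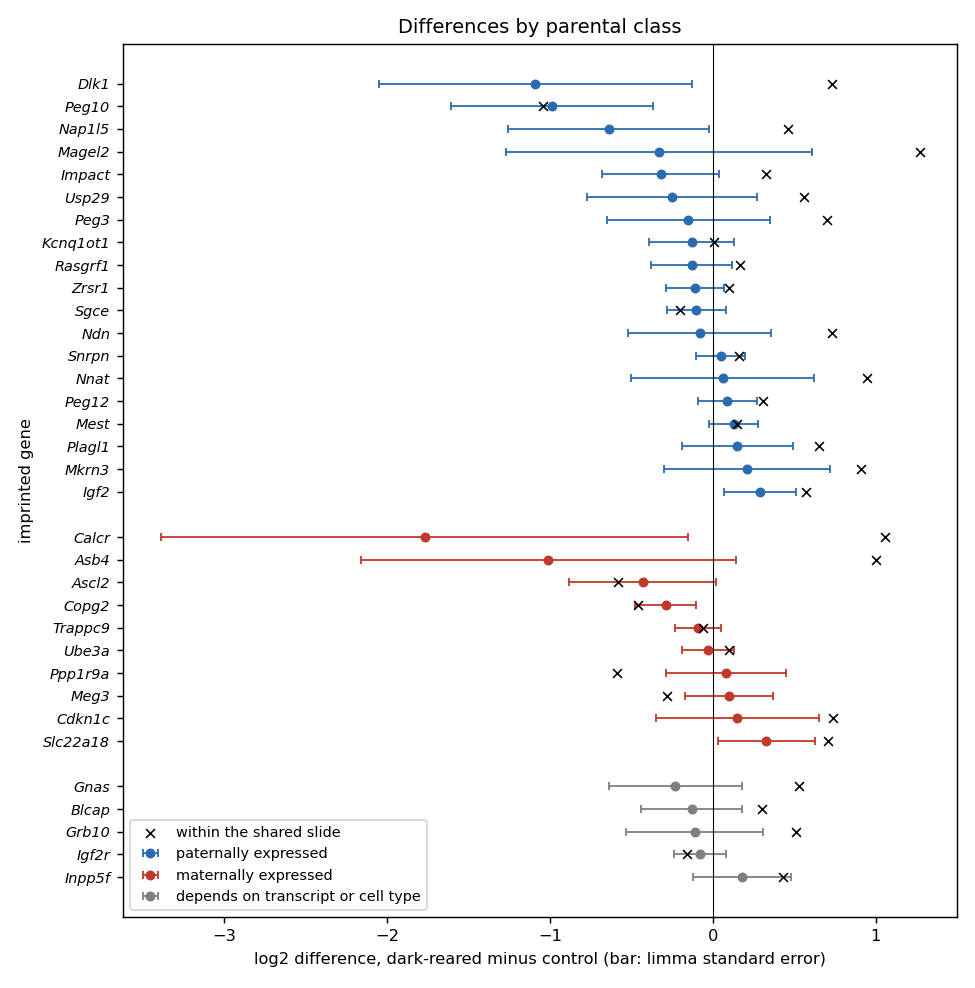
Each point is the log2 difference, dark-reared minus control, of 1 imprinted gene with limma's standard error as the bar, grouped by expressed copy, and each cross is the difference between the arrays on the shared slide. Most points lie near 0, from -1.77 for Calcr to 0.33 for Slc22a18, and for 18 of the 34 genes the cross lies on the other side of 0.

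Many of the imprinted genes were lowest in dark-reared 1, a pattern noticed after the values were seen. In 14 of the 34 (41.2%) the highest and lowest arrays differed by at least 1 on the log2 scale, a 2-fold range, against 16.0% of all genes. Among genes well above background on all 4 arrays the counts were 13 of 33 (39.4%) and 12.4%. Of the 14, 13 (92.9%) were lowest in dark-reared 1, where 37.2% of all genes with such a range were: Calcr, Asb4, Dlk1, Magel2, Peg10, Nap1l5, Nnat, Usp29, Mkrn3, Peg3, Ascl2, Grb10 and Ndn. The exception was Cdkn1c. Over all 34 genes 24 (70.6%) were lowest in dark-reared 1, against 28.4% of all genes, and 18 (52.9%) had dark-reared 1 lowest with control 2 next, against 15.2%. That same order was found in 7 of 14 hypothalamus markers and 9 of 20 thalamus markers. Leaving dark-reared 1 out, 5 of the 34 (14.7%) still ranged over at least 1 on the remaining arrays, Calcr, Cdkn1c, Dlk1, Magel2 and Peg10, against 10.1% of all genes. The paternal genes' median deviations from their mean over the arrays were -0.54, 0.24, 0.10 and -0.09, and those of the maternal genes -0.01, 0.04, 0.11 and 0.08. In numbers, 15 of 19 paternal, 5 of 10 maternal and 4 of 5 copy-dependent genes were lowest in dark-reared 1. These counts move with the background correction: with normexp 17 of the 34 were lowest in dark-reared 1, against 26.3% of all genes, and 14 ranged over at least 1, against 30.9%. With outlying local backgrounds replaced first the counts were 22, against 28.2%, and 13, against 6.73%. The part of the marker levels in this pattern was not tested.

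**Figure D2:**
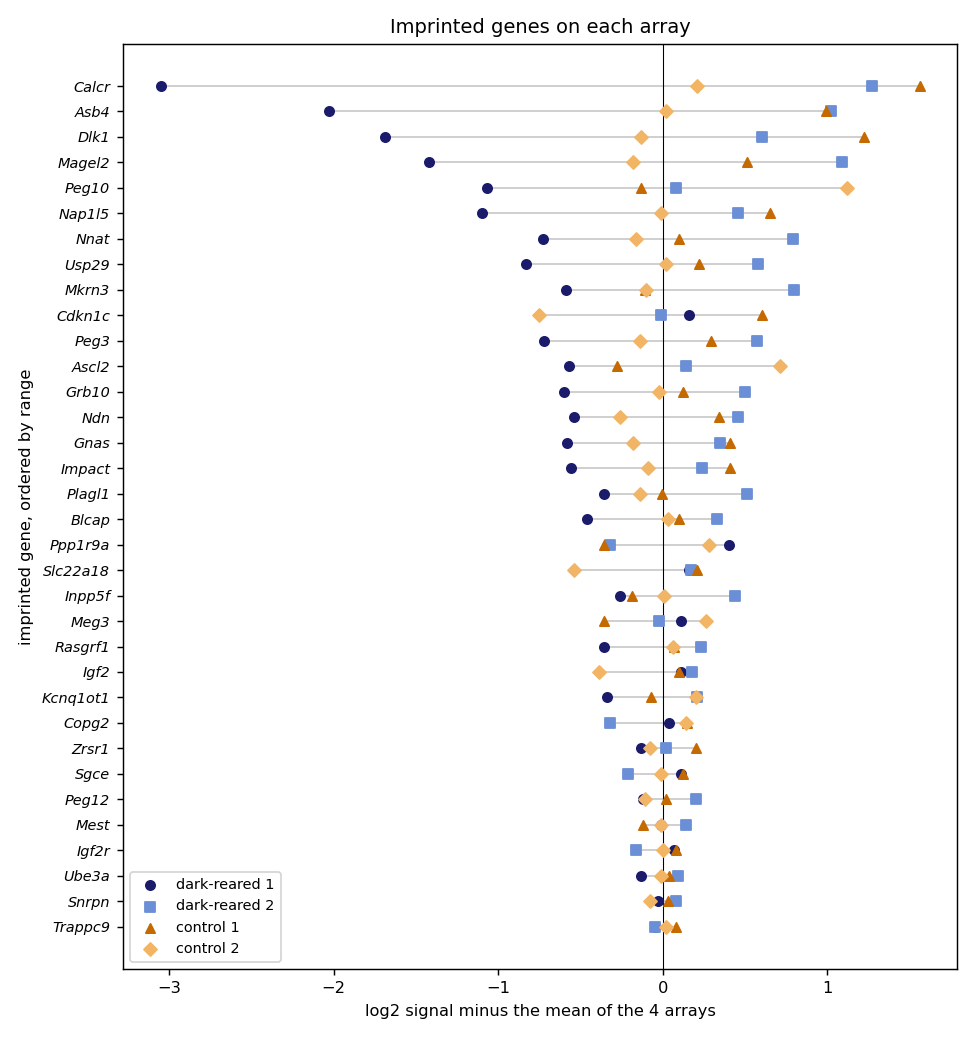
Each row is 1 of the 34 imprinted genes and each symbol 1 array, placed by its log2 signal minus that gene's mean over the 4 arrays, with genes ordered by the range they span. Dark-reared 1, the dark circle, is the lowest array in 13 of the 14 genes with a range of at least 1, and the spread narrows to 0.13 in Trappc9.

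In the Prader-Willi and Angelman region the genes of 1 cluster split into variable and steady members. Magel2, whose protein directs ubiquitination in protein recycling and which is strongly expressed in hypothalamus, read -0.86, 1.65, 1.07 and 0.38. Dark-reared 2 was the highest and dark-reared 1 the lowest, so the groups overlapped and the difference of -0.33 (SE 0.94) was smaller than the gap between the dark-reared arrays, 2.51. Ndn, encoding the related protein necdin of postmitotic neurons, read 1.54, 2.54, 2.42 and 1.82, with a difference of -0.08 (SE 0.44). Mkrn3, a ubiquitin ligase gene that restrains the onset of puberty, read -1.33, 0.06, -0.85 and -0.84: the controls differed by 0.01 and the dark-reared arrays lay on either side of them, with a difference of 0.21 (SE 0.51). The other 3 genes of the region hardly moved. Snrpn, whose splicing protein SmN is made in neurons, read 4.33, 4.44, 4.39 and 4.28, a range of 0.16. Ube3a, the Angelman gene, a ubiquitin ligase whose paternal copy is silent in neurons, read 2.14, 2.35, 2.31 and 2.25, and its second probe gave the same difference of -0.03. Peg12, of the Frat family of GSK3 inhibitors, read -1.55, -1.24, -1.42 and -1.54. All 6 genes were highest in dark-reared 2 and 5 were lowest in dark-reared 1, with ranges from 0.16 for Snrpn to 2.51 for Magel2.

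Peg3 and Usp29, whose shared promoter region is the first sequence shown, ran in parallel. Peg3, a zinc finger gene linked to maternal behaviour and growth, read 1.36, 2.65, 2.37 and 1.94, and its second probe 1.06, 2.23, 2.13 and 1.66. Usp29, a ubiquitin protease gene, read 2.26, 3.67, 3.31 and 3.11. In both genes dark-reared 1 was lowest, control 2 next, then control 1, and dark-reared 2 highest, so the controls lay between the dark-reared arrays. Their differences were -0.15 (SE 0.50) and -0.25 (SE 0.52). The third gene of the cluster, Zim1, was well above background in dark-reared 2 and control 1 (-4.95 and -4.57) and not in dark-reared 1 or control 2, so no fold is given.

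The Peg10 and Sgce cluster held the gene with the widest range of all 34. Calcr, the calcitonin receptor, which also forms amylin receptors, read -3.85, 0.47, 0.76 and -0.59, so dark-reared 1 lay 3.26 below the next array. Its difference of -1.77 (SE 1.62, unadjusted p 0.335 by limma) rests on that array, and without it the value was 0.39. Asb4, an ankyrin repeat gene of a ubiquitin ligase family that is enriched in the arcuate nucleus, had the same shape at -2.28, 0.77, 0.74 and -0.22, with a difference of -1.01 (SE 1.15) and 0.51 without dark-reared 1. Peg10, a gene derived from a retrotransposon, read -4.13, -2.99, -3.20 and -1.95, with dark-reared 1 lowest and control 2 highest. Its difference of -0.99 (SE 0.62) kept its sign in all 14 alternative settings other than the variance model and replicate blocks. The values ran from -1.61 to -0.37, and the groups overlapped. Other filters and the mean of probes could not move this difference, since Peg10 had only 1 probe, well above background on every array. Sgce, epsilon-sarcoglycan, which shares its promoter region with Peg10, read 3.07, 2.76, 3.08 and 2.95, a range of 0.32. Ppp1r9a, encoding the synaptic actin-binding protein neurabin, read 5.09, 4.38, 4.33 and 4.97, high in dark-reared 1 and control 2. Striatum markers were also high in these arrays, with median deviations of 0.89, -0.91, -0.66 and 0.61. The lowest array was control 1 for Ppp1r9a and dark-reared 2 for the striatum median. The other 3 Ppp1r9a probes were likewise highest in dark-reared 1 and next in control 2. The part of the striatum markers in the Ppp1r9a values was not tested.

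At the Dlk1 and Meg3 cluster the paternal protein gene ranged over 2.91 and the maternal RNA over 0.63. Dlk1, a membrane ligand related to Notch ligands and present in neuroendocrine neurons, read -3.32, -1.02, -0.41 and -1.76. Its difference was -1.09 (SE 0.96, unadjusted p 0.319 by limma) and 0.06 without dark-reared 1. Meg3, a long noncoding RNA, read 6.52, 6.38, 6.04 and 6.67 at the probe for transcript NR_027652, with control 1 lowest. At the brightest probe for transcript NR_003633 Meg3 read 6.05, 6.72, 6.18 and 6.52, now lowest in dark-reared 1. The probes thus disagreed on the order of the arrays, while every Meg3 probe differed by at most 0.14 between the groups.

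Nnat and its host gene Blcap were both lowest in dark-reared 1 and highest in dark-reared 2. Neuronatin, a small membrane protein of neurons and endocrine cells, is made from Nnat, which lies in an intron of Blcap and read 2.81, 4.32, 3.63 and 3.38. The dark-reared arrays enclosed the controls, and the difference was 0.06 (SE 0.56). Blcap read 3.79, 4.57, 4.35 and 4.27, with a difference of -0.13 (SE 0.31). Nap1l5, a nucleosome assembly protein gene copied into an intron of Herc3, read 3.1, 4.66, 4.85 and 4.2, with dark-reared 1 lowest and a difference of -0.64 (SE 0.62). At Mest, a hydrolase gene, and Copg2, a coat protein of Golgi vesicles, there was little spread: Mest read 0.43, 0.57, 0.31 and 0.42, and Copg2 1.32, 0.96, 1.43 and 1.42. Of the paternal genes whose promoters are printed above, Usp29, Peg3, Nnat and Nap1l5 thus ranged over 1.29 to 1.75 and Mest over 0.26.

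**Figure D3:**
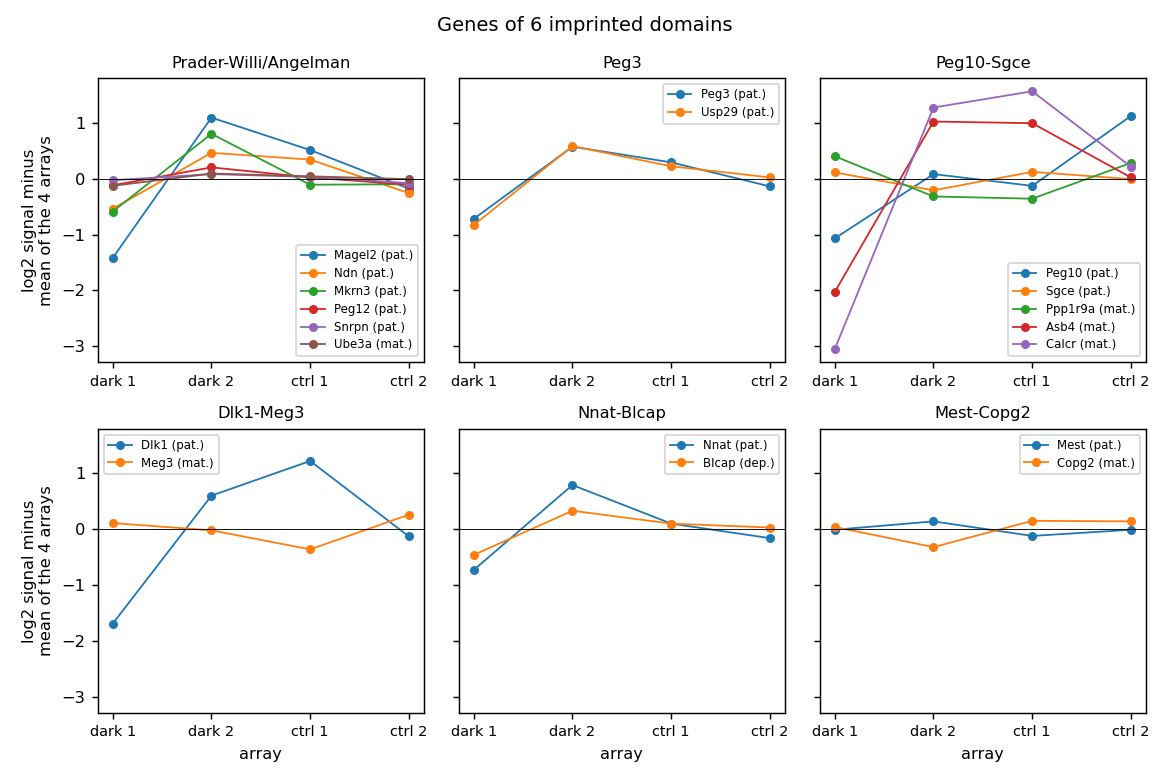
Each panel is 1 imprinted cluster and each line 1 gene, plotted as log2 signal minus the gene's mean over the 4 arrays, with pat., mat. and dep. for paternal, maternal and copy-dependent expression. The lines join the arrays of a gene and stand for no order in time: Calcr and Asb4 drop furthest in dark-reared 1 while Sgce of the same cluster stays within 0.32, and Dlk1 drops where the Meg3 probe shown does not.

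In the Igf2 and Kcnq1ot1 clusters, 3 genes were lowest in control 2 rather than in dark-reared 1. Igf2, a fetal growth factor which in brain comes mainly from choroid plexus and leptomeninges, where both copies are active, read 2.89, 2.97, 2.88 and 2.40. The dark-reared arrays were both above the controls, one of them by 0.01, and the difference was 0.29 (SE 0.22). Its second probe read 0.82, 0.92, 0.84 and 0.44 and overlapped. Cdkn1c, the cell cycle inhibitor p57, read 1.11, 0.95, 1.56 and 0.21, with the dark-reared arrays between the controls. Slc22a18, a transporter gene, read -2.65, -2.64, -2.60 and -3.35. These 3 genes and Snrpn, 4 of 34 (11.8%), were lowest in control 2, against 17.5% of all genes. Choroid plexus markers were lowest in the same array in 10 of 11, with sums of 56.9, 28.6, 54.5 and 14.1. Ttr, transthyretin of the choroid plexus, read 2.65, 1.58, 2.51 and -1.77, and Slc4a5 and Tmem72 were not well above background in control 2. The summed signal of the 18 meninges and vessel markers, carried by its brightest genes, was 56.1 to 59.4 over the arrays, while 7 of them ranged over at least 1. Slc22a6 read -0.73, -0.05, -0.84 and -1.69 and Ogn read -0.98, -0.69, -1.06 and -1.73, both lowest in control 2. Only 3 of the 18 were lowest there (16.7%, against 17.5% of all genes). The others were lowest in dark-reared 1 (6), dark-reared 2 (6) or control 1 (3). The part of the choroid plexus and meninges markers in the Igf2, Cdkn1c and Slc22a18 values was not tested. Kcnq1ot1, the noncoding RNA that silences its neighbours on the paternal copy, read 0.93, 1.49, 1.21 and 1.48, and Ascl2, a trophoblast transcription factor, read -4.86, -4.16, -4.58 and -3.59 and was not well above background in dark-reared 1. Phlda2, a gene that restrains placental growth, stayed dim on every array at both of its probes.

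Groups did not overlap in 4 imprinted genes, 11.8% of the 34, where 19.1% of all genes tested had no overlap. In 2, Igf2 and Mest, both dark-reared arrays were higher, against 9.50% of all genes, and in 2, Copg2 and Trappc9, both were lower, against 9.58%. The differences were small: 0.29 for Igf2, 0.13 (SE 0.15) for Mest, whose groups were 0.0037 apart at the nearest arrays, -0.29 (SE 0.19) for Copg2 and -0.09 (SE 0.14) for Trappc9, a vesicle transport gene that read 3.24, 3.24, 3.36 and 3.30. None of the 34 had both no overlap and a 2-fold difference, against 1.20% of all genes. Copg2 had 3 probes above background, with differences of -0.29, -0.21 and 0.06.

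The remaining genes include regulators of growth factor signalling and of transcription. Grb10, an adaptor that dampens insulin and IGF receptor signals and is expressed from the paternal copy in neurons, read 1.5, 2.6, 2.22 and 2.08, a difference of -0.11 (SE 0.42). Gnas, the stimulatory G protein subunit, read 0.73, 1.65, 1.72 and 1.12, with a difference of -0.23 (SE 0.41), and Plagl1, a zinc finger factor that regulates other imprinted genes, read 1.82, 2.69, 2.18 and 2.04. All 3 were lowest in dark-reared 1 with control 2 next. Impact, which inhibits the translation kinase GCN2 in neurons, shared that order at 4.14, 4.94, 5.11 and 4.61, with a difference of -0.32 (SE 0.36). Igf2r, the receptor that clears Igf2, read 0.73, 0.50, 0.75 and 0.66. Rasgrf1, a Ras exchange factor, Inpp5f, a phosphoinositide phosphatase, and Zrsr1, a retrogene related to a splicing factor, had differences of -0.13, 0.18 and -0.11 with ranges of 0.59, 0.71 and 0.33. Of 15 genes with more than 1 probe above background, 8 had probes whose differences disagreed in sign, with none over 0.30 in size. Among them, both dark-reared arrays exceeded both controls at the second Sgce probe (0.17). They were below both at the second Plagl1 probe (-0.26), a further Copg2 probe (-0.21) and 2 of the further Kcnq1ot1 probes (-0.1 and -0.3). Over all genes tested, with 1 probe for each gene, 9.50% were above both controls in this way and 9.58% below. The other 2 Kcnq1ot1 probes above background differed by -0.09 and 0.0034.

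Further imprinted genes and the proteins that keep imprints gave no gene past the test either. Of 42 other imprinted genes 28 were tested, 11 higher and 17 lower, with a median of -0.06. Dark-reared 1 held the lowest value in 9 of them (32.1%), near the 28.4% of all genes. Their largest differences were those of Slc38a4, an amino acid transporter not well above background in dark-reared 1 (-0.87), the homeobox gene Dlx5 (0.36), Cd81 (-0.30) and Ampd3 (0.28). In the machinery that sets and keeps imprints 21 of 22 genes were tested, with 16 higher, 5 lower and a median of 0.08; 2 (9.52%) were lowest in dark-reared 1, against 28.4% of all genes, and 11 (52.4%) in control 1, against 25.8%. Dnmt3b, a DNA methyltransferase, read -4.31, -3.78, -4.25 and -4.42 and was not well above background in control 2. Ctcf, the insulator protein, differed by 0.20 (SE 0.15). Ctcf read 1.45, 1.38, 1.13 and 1.29, with no overlap. In the Igf2 pathway 11 of 16 genes were tested, with 6 higher, 5 lower and a median of 0.03. Igfbp2, an IGF binding protein, read 2.38, 2.68, 2.41 and 1.52, lowest in control 2 as Igf2 was, and Igf1r, the receptor for Igf1 and Igf2, read 1.07, 0.83, 1.00 and 0.83.

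Several marker lists had larger median differences than the imprinted genes, though no test compared them. Hypothalamus markers were higher in 1 and lower in 13 of 14, with a median of -0.83, led by Oxt at -3.58 (SE 2.14) and Avp at -2.58 (SE 2.72). Thalamus markers were higher in 2 and lower in 18 of 20, with a median of -0.58. Within the shared slide the medians of both lists were above 0, at 0.29 and 0.81, and that of the imprinted genes was 0.38, with 26 of 34 higher in dark-reared 2. Choroid plexus markers had a median of 1.19 (10 higher, 1 lower), cortex and hippocampus markers 0.38 (11 and 6), striatum markers 0.02 (6 and 3), and pituitary markers -0.41 (0 and 6). All 10 oligodendrocyte markers had lower means, with a median of -0.75 and their lowest values in dark-reared 2. Medians of the 18 meninges and vessel, 8 astrocyte and 8 microglia markers were -0.0011, 0.07 and 0.11. No marker in these lists passed the adjusted threshold in limma, and 1 hypothalamus and 4 cortex and hippocampus markers had an unadjusted p under 0.05, which is 7.14% and 23.5% of these lists against 1.25% of all genes. Both dark-reared arrays were higher in 6 of 17 cortex and hippocampus markers (35.3%, against 9.50% of all genes).

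**Figure D4:**
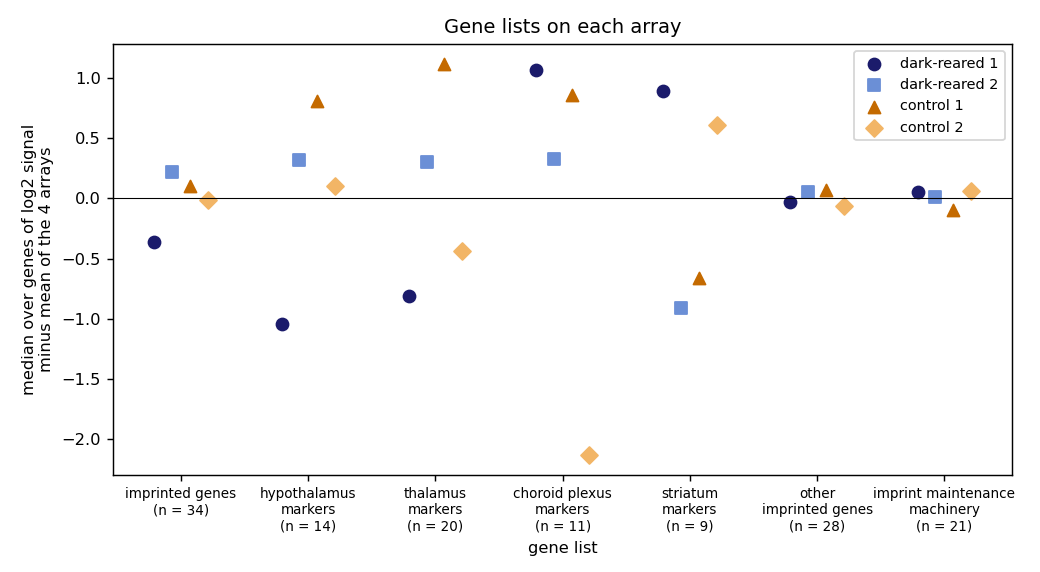
Each symbol is the median over the genes of a list of log2 signal minus the gene's mean over the 4 arrays, for 1 array, with n genes tested. Dark-reared 1 is lowest for the imprinted genes (-0.36), the hypothalamus markers (-1.04) and the thalamus markers (-0.81) but not for the other imprinted genes (-0.03), and control 2 is lowest for the choroid plexus markers (-2.13).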

How the data were processed

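Total RNA of 2 dark-reared and 2 control samples was read on 4 one-colour Agilent arrays annotated to mm9. The deposited intensities are processed signals, background-subtracted and detrended on each array alone. Per the file headers they come from Feature Extraction 10.7.3.1, and the submitters' processing notes give 10.7. A table of log2 values deposited by the authors, of unstated scaling, served as an alternative.

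Control spots and outlier spots (79 to 103 outliers per array) were left out, but a probe with outlier spots only kept their mean. Spots of a probe were averaged, and log2 was taken relative to the array's 75th percentile (764 to 794 intensity units over the probes). No spot was saturated. Probe accessions were named through RefSeq (GRCm38.p6), giving 26918 of 41174 probes 1 of 18350 symbols. Probes had to be well above background in both samples of a group, and the brightest probe stood for a gene, with probes ranked by their mean over the 4 arrays in every setting. The test was limma's (version 3.58.1, R 4.3.3; two-sided lmFit with eBayes), adjusted by Benjamini-Hochberg across 21426 genes and tested on simulated data. With 2 samples against 2 an exact permutation test cannot give a p under 0.333. The number of arrays limits the precision.

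Slide 3 carried dark-reared 2 together with control 2, while control 1 (slide 1) and dark-reared 1 (slide 2) were alone. A slide term would use up the residual degrees of freedom, so values within slide 3 have no test. Every imprinted gene with a probe is accounted for. From each other list at most 4 genes with the largest absolute difference are named, plus Igf1r, Ttr, Resp18, Slc17a6, Xist and Ddx3y; Tmem72 was named after its values were seen. Of the genes picked in this way, 1 is not reported here. The imprinted genes and all lists were chosen with earlier results of these data known. Alternatives were other scalings, normexp background correction, the deposited values, other filters, outlier spots kept, the mean of probes, another variance model, replicate blocks and leaving out each array. The normexp correction used median spot signals, since the tables read here hold no mean signals.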

Additional observations from a re-analysis of the deposited data

How the results depend on the processing

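The count of genes past an adjusted p of 0.05 in limma was 0 under each of the 14 alternatives with a test planned for it and the 2 added after seeing the data, with 154 to 1334 genes at an unadjusted p under 0.05. The 4 imprinted genes without overlap became 3 with quantile normalization, normexp with outlying local backgrounds replaced, the deposited values or the mean of probes; leaving out 1 array, which makes overlap rarer for all genes (49.7% to 65.8% without), gave 10 to 28. The paternal median of -0.11 was 0.46 within the shared slide and -0.48 to 0.20 without 1 array; the maternal median of -0.06 ran from -0.23 to 0.06 without 1 array.

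Signs of single genes changed most within the shared slide, for 18 of 34: Magel2 at 1.27, Ndn at 0.73, Ube3a at 0.1, Peg3 at 0.7, Usp29 at 0.56, Ppp1r9a at -0.59, Asb4 at 1.0, Calcr at 1.06, Dlk1 at 0.73, Meg3 at -0.28, Kcnq1ot1 at 0.01, Grb10 at 0.51, Gnas at 0.53, Blcap at 0.3, Impact at 0.33, Rasgrf1 at 0.17, Nap1l5 at 0.46 and Zrsr1 at 0.1. With normexp, which moved the median of all genes to -0.11, they changed for 8: Ndn at 0.05, Peg12 at -0.1, Ube3a at 0.17, Kcnq1ot1 at 0.08, Slc22a18 at -0.35, Grb10 at 0.05, Blcap at 0.06 and Zrsr1 at 0.01. With outlying local backgrounds replaced first, an alternative chosen after seeing the data, they changed for Snrpn at -0.04 and Ube3a at 0.05. With the mean of probes they changed for Sgce at 0.03, Meg3 at -0.0017 and Plagl1 at -0.06. The cause was not tested. Without 1 array, signs changed for 29 genes, whose lowest and highest values were Magel2 -1.59 to 0.93, Ndn -0.58 to 0.43, Mkrn3 -0.48 to 0.91, Peg12 -0.07 to 0.24, Snrpn -0.01 to 0.1, Ube3a -0.14 to 0.07, Peg3 -0.8 to 0.49, Usp29 -0.95 to 0.46, Sgce -0.26 to 0.05, Ppp1r9a -0.27 to 0.44, Asb4 -2.54 to 0.51, Calcr -3.93 to 0.39, Dlk1 -2.24 to 0.06, Meg3 -0.22 to 0.41, Cdkn1c -0.53 to 0.82, Kcnq1ot1 -0.41 to 0.14, Slc22a18 -0.04 to 0.7, Ascl2 -0.93 to 0.07, Igf2r -0.2 to 0.03, Plagl1 -0.29 to 0.58, Grb10 -0.66 to 0.44, Gnas -0.69 to 0.23, Nnat -0.69 to 0.82, Blcap -0.52 to 0.27, Impact -0.72 to 0.08, Rasgrf1 -0.43 to 0.16, Nap1l5 -1.42 to 0.14, Inpp5f -0.17 to 0.53 and Zrsr1 -0.26 to 0.03. Peg10, Igf2, Mest, Copg2 and Trappc9 kept their sign under all alternatives run. For Igf2, Mest, Copg2 and Trappc9, whose groups did not overlap, some of these alternatives could not change the sign. These were leaving out 1 array and the comparison within the shared slide. Trappc9 came as near to 0 as -0.00059.

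Replicate numbers were shared between the groups, and the labels state no pairing of samples. The correlation across 21426 genes of replicate 1 minus replicate 2 between the groups was -0.157. This value cannot decide on a pairing, since the arrays also differed in marker levels. With the replicate block 0 genes passed (271 at an unadjusted p under 0.05, against 267 without it), and with the crossed pairing, added after seeing the data, 0 passed (433 unadjusted).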
